A study of Bos taurus with 2 samples.

Results

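Oxidative phosphorylation (OXPHOS) genes were examined in single nuclei of bovine blastoids and day 8 blastocysts. Members were chosen by symbol: names starting with NDUFA, NDUFB, NDUFC, NDUFS, NDUFV, SDH, UQCR, COX4 to COX8 or ATP5, without the assembly factors that share those beginnings, plus the 13 protein genes of the mitochondrial genome. The rule found 90 of 35643 listed genes, 77 encoded in the nucleus and 13 in the mitochondrion. By symbol the nuclear members fell to complex I (34 genes), complex II (4), complex III (7), complex IV (13) and complex V (19), and the mitochondrial members to complexes I (7), III (1), IV (3) and V (2). Of the nuclear members, 75 had at least 1 UMI (unique molecular identifier, 1 captured RNA molecule), 73 had at least 10 and 71 at least 100 over both libraries. COX4I2 and COX6A2 had no UMI, COX7B had 5 and COX8B had 7. The symbols COX5B, COX6B1, COX7C and COX8A were not among those listed, so the nuclear complex IV values are without them.

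Oxidative phosphorylation makes ATP in the inner mitochondrial membrane. Complex I (NADH dehydrogenase), complex II (succinate dehydrogenase), complex III (ubiquinol-cytochrome c reductase) and complex IV (cytochrome c oxidase) pass electrons to oxygen and, except for complex II, pump protons, and complex V (ATP synthase) uses the proton gradient. All subunits of complex II are encoded in the nucleus, whereas the other complexes join nuclear subunits to mitochondrial ones, so 2 genomes are read to build 1 machine. Nuclear members are transcribed in the nucleus and translated in the cytoplasm, and mitochondrial members are transcribed and translated inside the organelle. In preparations of nuclei, mitochondrial RNA therefore comes from organelles or cytoplasm that stayed with the nucleus or its droplet. The preimplantation embryo is known to raise respiration when the blastocyst forms, mainly in the trophectoderm, whose sodium pumps fill the blastocoel.

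Both groups were wild type by label and each had 1 library, so no test between replicates was possible and no p-value is given. The blastoids, structures that resemble a blastocyst, were assembled per the labels from 8 bEPSC, 8 bXEN and 16 bTSC cells (expanded potential, extraembryonic endoderm and trophoblast stem cell lines, after depletion of mouse feeders) per microwell in ACL medium with LIF, activin A and CHIR99021 plus the CEPT mixture of chroman-1, emricasan, trans-ISRIB and polyamines. The blastocysts were collected on day 8. Nuclei came from frozen material in both cases, and the number of blastoids or embryos pooled was not given in the sources used here.

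The blastoid library held 7575395 UMIs in 1957 barcodes and the blastocyst library 7029253 UMIs in 944 barcodes, of which 1919 and 839 were kept. The libraries shared 1 barcode sequence. Kept barcodes fell into deep ones, with at least 4000 UMIs (286 blastoid and 687 blastocyst), and shallow ones (1633 and 152). The shallow blastoid barcodes stood apart: almost all belonged to 1 cluster of 1627 barcodes with a median of 1926 UMIs and 15.5% of UMIs from cytosolic ribosomal proteins, called ribosomal-rich here. Markers of trophectoderm, hypoblast and epiblast named a trophectoderm-like cluster in each library (153 blastoid and 231 blastocyst barcodes) and a hypoblast-like (329) and an epiblast-like (86) cluster in the blastocyst. A deep blastoid cluster of 139 barcodes, led by LMX1A, LDB2, NLGN1 and DCC, and a blastocyst cluster of 193 barcodes with a median of 3121 UMIs stayed unnamed. The 109 shallow barcodes of this blastocyst cluster also held many ribosomal protein UMIs, at 6.58%. Mesoderm markers were near 0, with a summed level of 8.94 CPM (counts scaled to 1000000 UMIs) in blastoid and 3.35 CPM in blastocyst. The summed level of fibroblast markers was 81.1 and 37.8 CPM, that of neural markers 129 and 71.7 CPM and that of cumulus or granulosa markers 91.4 and 282 CPM, and their part in the results below was not tested.

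Nuclear OXPHOS genes gave 0.403% of the UMIs of deep blastoid barcodes and 0.350% of those of deep blastocyst barcodes. Shallow barcodes gave 1.74% (blastoid) and 0.994% (blastocyst) to the nuclear genes. The 13 mitochondrial genes took 0.482% and 0.791% of UMIs in deep, and 2.06% and 3.54% in shallow barcodes, blastoid before blastocyst. Thus both genomes' genes took a larger share of shallow than of deep barcodes in each library. In the sums of either depth class the nuclear share was higher in blastoid and the mitochondrial share higher in blastocyst. Neither order held in every narrower bin of depth given below. Exact 95% intervals of the 8 shares above were narrow (0.785% to 0.798% for the deep blastocyst mitochondrial share) but, like all intervals here, cover counting error only. Genes of cytosolic ribosomal proteins, whose RNA is mostly cytoplasmic, moved along: 2.51% in deep and 15.5% in shallow blastoid barcodes, and 0.841% and 4.39% in the blastocyst. Their part in the difference was not tested.

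The balance of the 2 genomes was first taken from sums of UMIs. Per nuclear OXPHOS UMI there were 1.19 mitochondrial UMIs in deep blastoid barcodes (95% interval 1.17 to 1.22) and 1.18 in shallow ones (1.17 to 1.20). In the blastocyst the ratio was 2.26 in deep (2.23 to 2.30) and 3.56 in shallow barcodes (3.42 to 3.71). Without 12 shallow blastocyst barcodes in which mitochondrial genes made up at least 10% of UMIs, the shallow ratio was 2.40 (2.30 to 2.52) and the shallow mitochondrial share 2.25%. By class, the ratio was 1.06 in trophectoderm-like and 1.37 in unnamed blastoid barcodes, and 1.87 in trophectoderm-like, 2.01 in hypoblast-like, 2.41 in epiblast-like and 3.55 in unnamed blastocyst barcodes. Barcode by barcode the order was less clear. Mitochondrial UMIs outnumbered nuclear ones in 47.9% of deep and 45.2% of shallow blastoid barcodes, and in 53.9% and 67.1% of blastocyst ones. By class the share was 42.5% in trophectoderm-like and 54.7% in unnamed blastoid barcodes, and 52.4% in trophectoderm-like, 50.2% in hypoblast-like, 61.6% in epiblast-like and 68.9% in unnamed blastocyst barcodes, so the libraries' classes overlapped in this measure.

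Sums hid a wide spread of the mitochondrial part between barcodes, seen in the plot of the shares by barcode. The middle 50% of deep blastocyst barcodes ran from 0.160% to 0.929% mitochondrial UMIs, around a median of 0.400%, and of deep blastoid barcodes from 0.250% to 0.725%, around 0.445%. The median barcode thus placed the blastoid slightly above the blastocyst, the opposite of the sums. In the deep blastocyst group, the 68 barcodes with the highest mitochondrial share held 44.9% of its mitochondrial UMIs but 9.92% of all its UMIs. In trophectoderm-like barcodes the order turned in the same way: sums of 0.425% in blastoid and 0.539% in blastocyst, medians of 0.387% and 0.319%. The nuclear part kept its order, with deep medians of 0.424% and 0.341% and shallow medians of 1.75% and 0.838%. The variance of the share between barcodes was 151 times that of binomial counting for the mitochondrial part of deep blastocyst barcodes and 10.1 times for their nuclear part, against 47.2 and 6.33 times in deep blastoid barcodes. Among shallow blastoid barcodes the nuclear part came nearest to counting noise, at 1.55 times, beside 23.4 times for the mitochondrial part. For the same spread of shares this measure rises with the UMIs per barcode. Median depth was 1925 UMIs in shallow blastoid, 13070 in deep blastoid and 8591 in deep blastocyst barcodes. The measure therefore does not order these groups by spread.

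**Figure D1:**
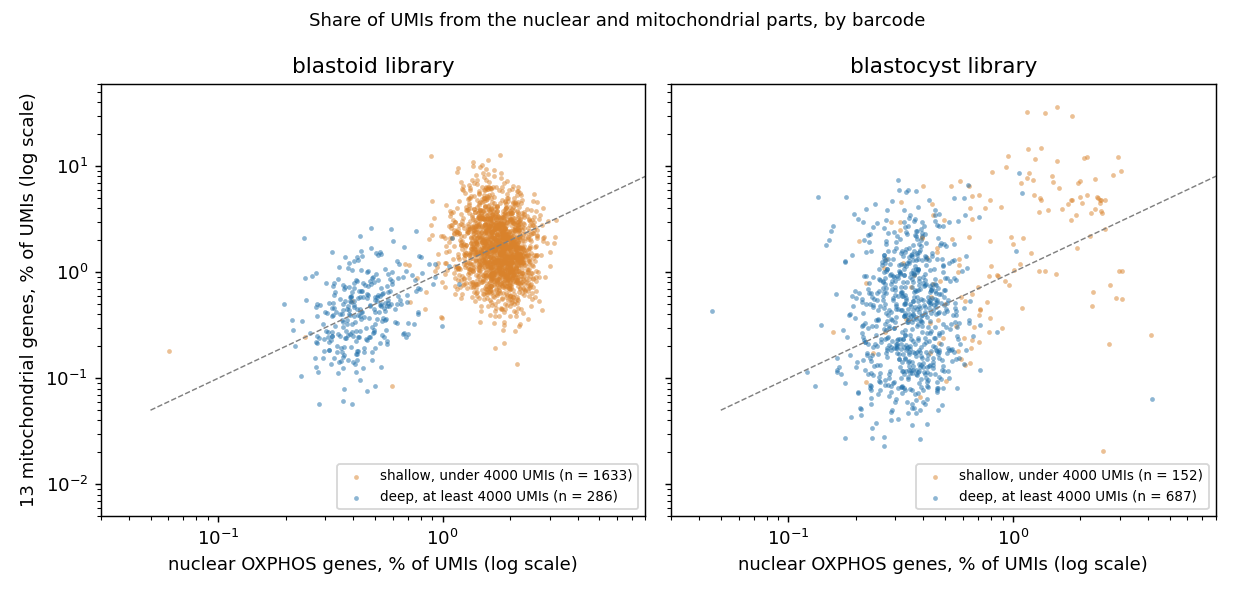
Each point is 1 kept barcode; the x axis gives the share of its UMIs from 77 nuclear and the y axis from 13 mitochondrial OXPHOS genes, both in percent on log axes after adding 0.5 UMI, and the dashed line marks equal shares. Shallow blastoid barcodes form a compact cloud around 1.75% nuclear, while blastocyst barcodes spread widely along the mitochondrial axis.

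Across barcodes the nuclear part followed ribosomal proteins more closely than it followed the mitochondrial part. For these correlations the nuclear share was taken of the UMIs outside the mitochondrial genes, and the other shares of all UMIs. Spearman's rho between the nuclear and ribosomal protein shares was 0.845 over 286 deep blastoid barcodes and 0.850 over 152 shallow blastocyst barcodes. It was 0.384 over 687 deep blastocyst and 0.162 over 1633 shallow blastoid barcodes. Between the nuclear and mitochondrial shares rho was 0.362, 0.436, 0.0737 and −0.0645 in the same order. These are descriptions over barcodes of 1 library, which share that library and carry their depth in both shares.

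By depth the nuclear share fell along nearly the whole range, and the number of nuclear OXPHOS UMIs per barcode changed much less than the total. Blastoid barcodes of 1000 to 2000 UMIs held a median of 31 nuclear and 27 mitochondrial OXPHOS UMIs, and those of at least 16000 UMIs held 73 of each. In the blastocyst library, barcodes of 1000 to 2000 UMIs held 14 and 33 and those of at least 16000 UMIs held 60 and 73. As shares, the nuclear part went from 1.81% to 0.333% in blastoid and from 1.15% to 0.356% in blastocyst between those depths. At 16000 or more UMIs the nuclear share was thus lower in blastoid, and in the other bins of at least 10 barcodes it was higher. The mitochondrial share of the blastocyst did not fall steadily: it was 6.28% at 1000 to 2000 UMIs, 0.696% at 8000 to 16000 and 1.02% at 16000 or more. In the blastoid the bins from 3000 to 4000 and from 4000 to 6000 UMIs held only 18 and 17 barcodes, and their mitochondrial shares of 2.89% and 0.844% rest on few barcodes. The blastoid mitochondrial share was above the blastocyst one at 3000 to 4000 UMIs (2.89% and 2.39%) and at 6000 to 8000 (0.941% and 0.738%). In the other bins of at least 10 barcodes it was below.

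**Figure D2:**
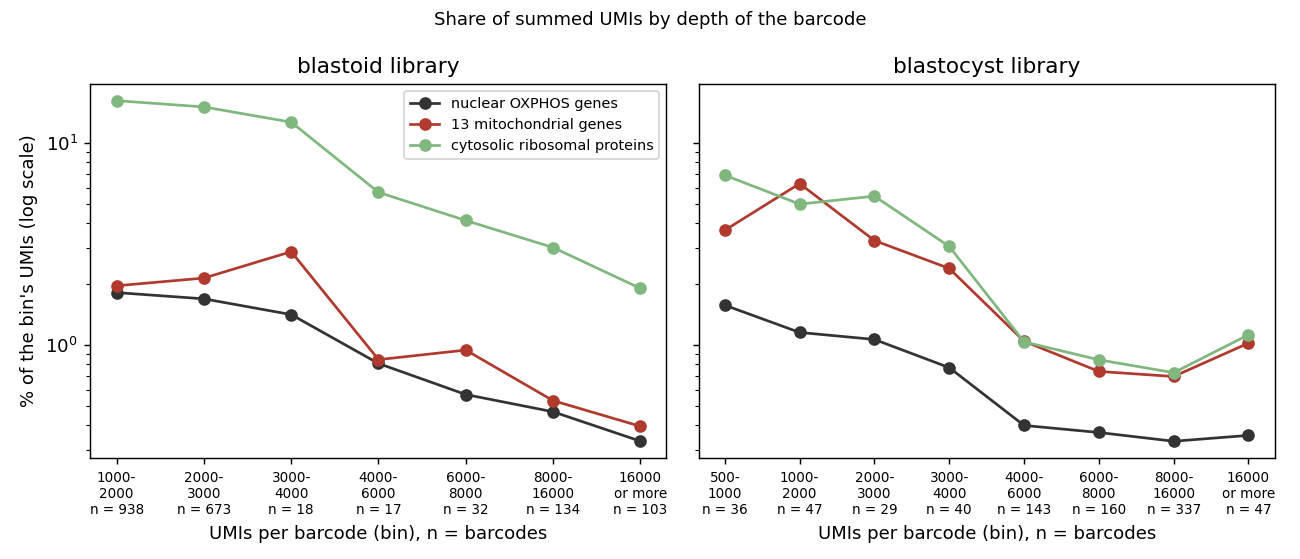
Lines give the share of a depth bin's summed UMIs, in percent on a log axis, from nuclear OXPHOS genes, the 13 mitochondrial genes and cytosolic ribosomal proteins, by UMIs per barcode; n is the number of barcodes, and bins under 10 barcodes are left out. The blastoid mitochondrial line runs from 1.05 to 2.05 times the nuclear one, farthest above it in the bin of 18 barcodes, and in blastocyst the mitochondrial line lies above the nuclear one in every bin shown.

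Between shallow and deep barcodes of the blastoid library, the median nuclear member was higher in shallow ones by 2.23 on the log2 scale of CPM, and 62 of the 73 members with at least 10 UMIs were at least 2-fold higher and 1 at least 2-fold lower. Over all 16732 genes with at least 10 UMIs, 18.4% were at least 2-fold higher and 44.5% at least 2-fold lower, with a median of −0.77. With at least 100 UMIs it was 59 of 68 nuclear members higher, beside 21.0% of genes higher and 43.5% lower. In the blastocyst library the nuclear median was 1.75, with 50 of 70 members at least 2-fold higher and none at least 2-fold lower, beside 34.0% and 6.54% of 16205 genes and a median of 0.40. The blastocyst background is raised by the treatment of low counts, since counts under 3 were set to 3 and this touched 32.2% of its genes but no OXPHOS member. Over 8833 genes with at least 100 UMIs, 11.0% were at least 2-fold higher and 12.0% lower, with a median of −0.19, beside 47 of 67 nuclear members higher and a median of 1.72. All 13 mitochondrial genes were at least 2-fold higher in shallow barcodes of either library, with medians of 2.09 and 2.16. The blastocyst value was 1.48 without barcodes of at least 10% mitochondrial UMIs and 1.44 with at least 1000 genes per barcode. The cytosolic ribosomal proteins, 62 of 66 tested, moved in the same direction with medians of 2.65 and 2.45; what part they had was not tested.

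By complex the order of the nuclear medians was the same in the 2 libraries. Complex V had the highest nuclear median, 2.56 in blastoid and 2.14 in blastocyst, and all its members with at least 10 UMIs (19 and 18) were at least 2-fold higher. Complex IV followed with 2.41 and 1.80, then complex III with 2.32 and 1.29 and complex I with 2.10 and 1.22. Complex II, the complex without mitochondrial subunits, was lowest, at 0.55 and 0.58, with 1 of 4 members at least 2-fold higher in each. Complex II made up 5.60% of nuclear OXPHOS UMIs in deep and 1.88% in shallow blastoid barcodes, and 8.80% and 4.45% in the blastocyst, while complex V went from 32.7% to 40.5% and from 29.6% to 41.8%.

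**Figure D3:**
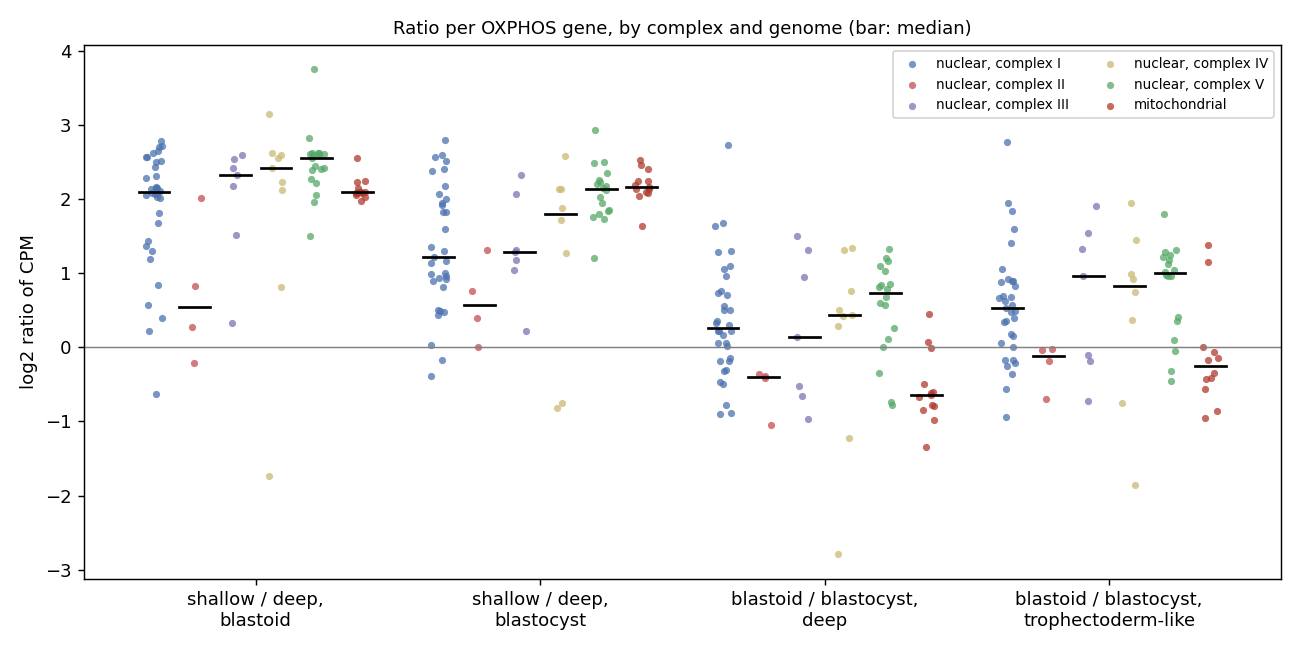
Each point is 1 OXPHOS gene with at least 10 UMIs, the y axis is the log2 ratio of its CPM in the 2 barcode groups named below the axis, colours give the complex and genome, and bars are medians. The shallow against deep medians are 2.56 and 2.14 for complex V, 2.09 and 2.16 for the mitochondrial genes and 0.55 and 0.58 for complex II, blastoid before blastocyst, and in the deep blastoid against blastocyst comparison the mitochondrial median lies below that of every nuclear complex, with overlapping genes.

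ATP5IF1, which encodes the inhibitor that stops ATP synthase from running backwards, was the nuclear member with the largest shallow excess in both among those with at least 100 UMIs. Its level was 341 CPM in shallow and 48.4 CPM in deep blastoid barcodes (7.04-fold, 95% interval 6.07 to 8.21) and 164 and 21.6 CPM in the blastocyst (7.60-fold, 5.41 to 10.5). At least 1 UMI of it was found in 44.9% of shallow and 46.5% of deep blastoid barcodes as sequenced, and in 44.1% of 691 shallow and 7.34% of 286 deep ones after each was thinned to 2000 UMIs, which left out 942 shallow barcodes. So about the same share of shallow and deep barcodes held ATP5IF1 as sequenced, and a smaller share of deep ones at equal depth. No class is known to lack ATP5IF1, so no share of barcodes from free RNA could be set beside these. NDUFA4, filed under complex I by name although its protein is now known as a subunit of complex IV, came next in the blastoid, with 436 against 63.5 CPM (6.87-fold, 6.03 to 7.86), and was 5.70-fold higher in the blastocyst (4.47 to 7.2).

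The lowest members with at least 100 UMIs were NDUFS1 in the blastoid and COX7A1, a complex IV isoform, in the blastocyst. COX7A1 was 12.9 CPM in shallow and 22.7 CPM in deep blastocyst barcodes, from 4 and 149 UMIs, with an interval that spans no change, and 17.2 and 9.77 CPM in the blastoid, 1.76-fold higher (1.16 to 2.70). SDHC, a membrane anchor of complex II, was among the 5 lowest in both libraries, at 77.1 CPM in shallow and 89.1 CPM in deep blastoid barcodes and at 116 CPM in both depths of the blastocyst. Its shallow and deep intervals overlap in each library. NDUFS1, the largest iron-sulfur subunit of complex I, was 36.0 CPM in shallow and 55.8 CPM in deep blastoid barcodes, 1.55-fold lower (1.24 to 1.95), and 80.6 and 78.9 CPM in the blastocyst. NDUFS4, an accessory subunit of complex I, had a log2 ratio of −0.39 in the blastocyst, where its interval spans no change. Over the 65 nuclear members with at least 100 UMIs in each library, 47 (72.3%) were at least 2-fold higher in shallow barcodes of both. Of the 7830 genes with as many UMIs in each library, 9.62% were. Spearman's rho between the 2 libraries' ratios was 0.879 over those members and 0.716 over the 7830 genes; the 2 axes share no barcodes but the same kit and counting.

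Within a depth class, the nuclear members were by median higher in blastoid than in blastocyst and the mitochondrial members lower, each by modest amounts. Depth differed inside the groups, with medians of 13070 and 8591 UMIs in deep and 14773 and 8710 in trophectoderm-like barcodes, blastoid before blastocyst. Neither order of the summed shares held in every narrower bin of depth given above, and the part of depth was not tested. In deep barcodes the nuclear median was 0.34 and the mitochondrial one −0.64 on the log2 scale, beside 0.04 over 18411 genes. The deep groups hold different cell classes: the median was 1.04 for trophectoderm markers (12 of 21 at least 2-fold higher), −1.01 for hypoblast markers (12 of 24 lower) and −2.11 for epiblast markers (11 of 15 lower), and class makeup and library cannot be told apart in the deep comparison of OXPHOS, cycle or regulator genes. Of 72 nuclear members, 16 were at least 2-fold higher and 3 at least 2-fold lower, and the background was 21.9% and 15.2% of genes, so the share higher was near the background and the share lower below it. Of 13 mitochondrial members, 11 were lower in blastoid, 1 of them by at least 2-fold. In trophectoderm-like barcodes the medians were 0.65 and −0.26, beside 0.10 over 14964 genes. The class was not matched in other markers: hypoblast markers had a median of 0.91 (11 of 23 at least 2-fold higher and 6 lower), epiblast markers −1.45 (6 of 11 lower) and neural markers 1.79 (4 of 5 higher), and their part was not tested. Of the OXPHOS genes, 20 of 70 nuclear members were at least 2-fold higher and 1 lower (background 20.8% and 13.9%), and 2 of 12 mitochondrial members were at least 2-fold higher. In shallow barcodes the medians were 0.87 and −0.66, beside −0.70 over 13544 genes, with 32 of 73 nuclear members at least 2-fold higher and 2 lower (background 12.4% and 40.9%) and 3 of 13 mitochondrial members at least 2-fold lower. Counts set to 3 touched 22.7% of genes and 3 nuclear members there; with at least 100 UMIs, 31 of 68 nuclear members were higher and 1 lower, beside 23.7% and 27.9% of genes. Summed marker levels in shallow blastoid and blastocyst barcodes were 351 and 1580 CPM for epiblast, 2837 and 4944 CPM for hypoblast and 14001 and 6076 CPM for trophectoderm, and ribosomal proteins had a median of 1.87, and class makeup and library cannot be told apart in it. The shallow mitochondrial median was −0.081 without barcodes of at least 10% mitochondrial UMIs and −0.012 with at least 1000 genes per barcode. Among genes with at least 100 UMIs the all-gene medians were −0.037, 0.018 and −0.15 in the deep, trophectoderm-like and shallow comparisons, beside 0.31, 0.63 and 0.91 over the nuclear members with as many. Over all kept barcodes the medians were 1.55 and 0.40, with 49 of 73 nuclear members at least 2-fold higher and 1 lower (background 24.2% and 20.7%) and 2 of 13 mitochondrial members higher. That comparison sets mostly shallow blastoid barcodes against mostly deep blastocyst ones, and depth class and library cannot be told apart in it.

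The direction of the mitochondrial difference depended on how barcodes were weighted. The ratio of median shares per barcode was 0.16 in deep and 0.28 in trophectoderm-like barcodes, against −0.64 and −0.26 from the gene sums. Deep blastocyst barcodes of the unnamed cluster had a mitochondrial share of 1.76%, above the 0.539% to 0.778% of the named classes. Without that cluster the deep medians from the gene sums were −0.37 (mitochondrial) and 0.50 (nuclear), so both kept their sign. With deep set from 2000 UMIs, which adds part of the ribosomal-rich cluster to the blastoid sum, the mitochondrial median was 0.19 and the nuclear one 1.30. With it set from 6000 UMIs, the shallow mitochondrial median was 0.27.

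Within the nuclear part, the deep comparison had subunits of complexes I, III, IV and V at its high end, among members with at least 100 UMIs. NDUFA1, an accessory subunit of complex I, was 26.7 CPM in deep blastoid and 8.38 CPM in deep blastocyst barcodes (3.19-fold, 2.29 to 4.48), and NDUFS5, another accessory subunit, 23.3 and 7.47 CPM (3.11-fold, 2.19 to 4.48). UQCR11, the smallest subunit of complex III, was 2.82-fold higher (2.15 to 3.71) and COX6C, a subunit of complex IV, 2.54-fold (2.20 to 2.94). ATP5MC2, 1 of 3 genes for the same c subunit of the ATP synthase ring, was 2.49-fold higher (2.13 to 2.93). On the low side, SDHD, the other membrane anchor of complex II, was 17.7 CPM in blastoid and 36.4 CPM in blastocyst, 2.06-fold lower (1.59 to 2.70). UQCRC1, a core protein of complex III, was 1.96-fold lower (1.59 to 2.41), and NDUFA10, a complex I subunit related to kinases, had a log2 ratio of −0.90. By complex the deep medians were 0.73 for V, 0.43 for IV, 0.26 for I, 0.14 for III and −0.40 for II, so complexes V and II were again at the ends.

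In trophectoderm-like barcodes other members stood highest among the 63 with at least 100 UMIs, COX6C excepted. Members below that minimum were not ranked. The complex medians were 1.00 for V, 0.96 for III, 0.83 for IV, 0.52 for I and −0.11 for II. COX6C was 105 CPM in blastoid and 27.2 CPM in blastocyst, 3.86-fold higher (2.91 to 5.18). UQCRQ, a small subunit of complex III, was 49.3 and 13.2 CPM, 3.75-fold higher (2.49 to 5.80). NDUFA7 was 3.58-fold (2.26 to 5.88), ATP5ME 3.47-fold (2.46 to 4.98) and NDUFA11 3.03-fold higher (1.90 to 5.01); the intervals of these lie above 1.5-fold. NDUFB2, an accessory subunit of complex I, was 46.4 and 88.6 CPM, 1.91-fold lower (1.51 to 2.43). Ribosomal proteins again stood beside these values, at 2.47% of UMIs in blastoid and 0.739% in blastocyst trophectoderm-like barcodes, with a median log2 ratio of 1.90 over 62 genes and 1.64 in the deep comparison, and their part was not tested.

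Among the named classes of the blastocyst, which come from 1 library, the trophectoderm-like class had the lowest share of both genomes' genes. Nuclear genes took 0.288% of its UMIs (0.281% to 0.295%), 0.323% in the epiblast-like and 0.365% in the hypoblast-like class. Mitochondrial genes took 0.539%, 0.778% and 0.734% in the same order. Per barcode, the medians were 0.297%, 0.324% and 0.365% for nuclear and 0.319%, 0.471% and 0.396% for mitochondrial genes, so the order was kept in both parts. The quartiles of the mitochondrial share overlapped widely, from 0.141% to 0.701% in trophectoderm-like, 0.172% to 1.15% in epiblast-like and 0.166% to 0.924% in hypoblast-like barcodes. Ribosomal protein shares were alike in these classes, at 0.739%, 0.681% and 0.724%, and median depth was 8710, 10214 and 7372 UMIs.

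Gene by gene the class differences were small for the nuclear part. Hypoblast-like against trophectoderm-like, the nuclear median was 0.28 and the mitochondrial one 0.45, beside 0.21 over 15087 genes. Only 3 of 70 nuclear and 1 of 13 mitochondrial members were at least 2-fold higher and none was at least 2-fold lower (background 19.2% and 13.9%). Epiblast-like against trophectoderm-like, the medians were 0.17 and 0.60, beside 0.09 over 13739 genes, with 1 of 70 and 1 of 12 members at least 2-fold higher and none lower (background 18.6% and 15.0%). When ratios were scaled by the median of all genes the nuclear epiblast-like median was −0.058, and the other 3 medians kept their sign. At resolution 1.0 of the clustering it was −0.067, and with at least 1000 genes per barcode 0.45. The mitochondrial epiblast-like median was 0.91 with the 10% mitochondrial limit and 1.52 with at least 1000 genes. Members have more UMIs than most genes, and the shares past 2-fold are not matched for that.

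NDUFS3, a core subunit of complex I, was 92.5 CPM in hypoblast-like, 69.9 CPM in epiblast-like and 42.6 CPM in trophectoderm-like barcodes, a hypoblast-like excess over trophectoderm-like of 2.17-fold (1.71 to 2.78). NDUFA5, an accessory subunit, was 62.6, 54.8 and 29.8 CPM in the same classes, and NDUFA8 was 1.99-fold higher in hypoblast-like than in trophectoderm-like barcodes (1.43 to 2.81). COX6C was 54.1 CPM in hypoblast-like, 47.3 CPM in epiblast-like and 27.2 CPM in trophectoderm-like barcodes. UQCRH, the hinge protein of complex III, was 1.81-fold higher in hypoblast-like (1.44 to 2.29) and 1.93-fold higher in epiblast-like (1.44 to 2.57) than in trophectoderm-like barcodes. UQCRFS1, the Rieske iron-sulfur protein of complex III, was 1.95-fold higher in the epiblast-like class (1.30 to 2.91). The hypoblast-like and epiblast-like intervals of NDUFA5, COX6C and NDUFS3 overlap, so those 2 classes are not ordered for these genes at this depth. On the low side, ATP5PF had a hypoblast-like ratio of −0.41 whose interval spans no change, and NDUFC1 was 1.61-fold lower in epiblast-like barcodes (1.01 to 2.67).

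The proportions of the 13 mitochondrial genes were close between the depths of a library, and for 5 genes they differed more between the libraries. COX3, COX2, CYTB and COX1 made up most of the part; COX3, a core subunit of complex IV, was 27.6% of the 13 genes' UMIs in deep and 27.2% in shallow blastoid barcodes and 30.2% and 32.1% in the blastocyst. COX2 was 18.5% and 19.1% in blastoid and 15.9% and 14.6% in blastocyst. ND5, the largest complex I subunit of this genome, was 2.04% in both depths of the blastoid and 0.915% and 1.12% in the blastocyst. ND3, a small membrane subunit of complex I, went the other way, with 2.11% and 2.04% in blastoid and 3.26% and 3.07% in blastocyst. ATP6, which forms the proton channel of complex V, was 3.46% and 3.40% against 4.14% and 4.39%. Thus for COX2, COX3, ND3, ND5 and ATP6 the 2 depths of 1 library lay closer together than the 2 libraries, and the exact intervals of the libraries did not overlap.

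ND3 and ND5 kept those values in the classes of each library, and COX2 and ATP6 did not. COX2 was 20.7% in trophectoderm-like and 16.4% in unnamed blastoid barcodes, beside 16.4% in trophectoderm-like blastocyst barcodes, and ATP6 was 2.85% and 4.03% in the blastoid clusters, beside 4.07% in the latter. ND5 was 1.95% in trophectoderm-like and 2.11% in unnamed blastoid barcodes, and 0.692% in trophectoderm-like, 0.889% in hypoblast-like and 0.801% in epiblast-like blastocyst barcodes. ND3 was 2.05% and 2.18% in the blastoid clusters and between 3.13% and 3.37% in the named blastocyst classes. ND5 therefore differed by library in the same direction in every class, and its blastocyst share was lowest in the trophectoderm-like class, where the interval (0.553% to 0.856%) overlaps those of the other named classes. CYTB (12.7% and 13.2%), COX1 (12.5% and 12.1%), ND4 (7.22% and 6.89%), ND2 (7.33% and 6.85%) and ND1 (5.08% and 5.54%) were close in blastoid and blastocyst. ND6, the gene on the other strand from the rest, was 0.993% in blastoid and 0.672% in blastocyst, ND4L 0.354% and 0.20%, and ATP8, whose reading frame overlaps that of ATP6, 0.0624% and 0.0397% from 54 and 25 UMIs. Mitochondrial RNA is cut from long precursors, and ND4L with ND4 and ATP8 with ATP6 share 1 messenger, so reads of such partners cannot be assigned with certainty.

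**Figure D4:**
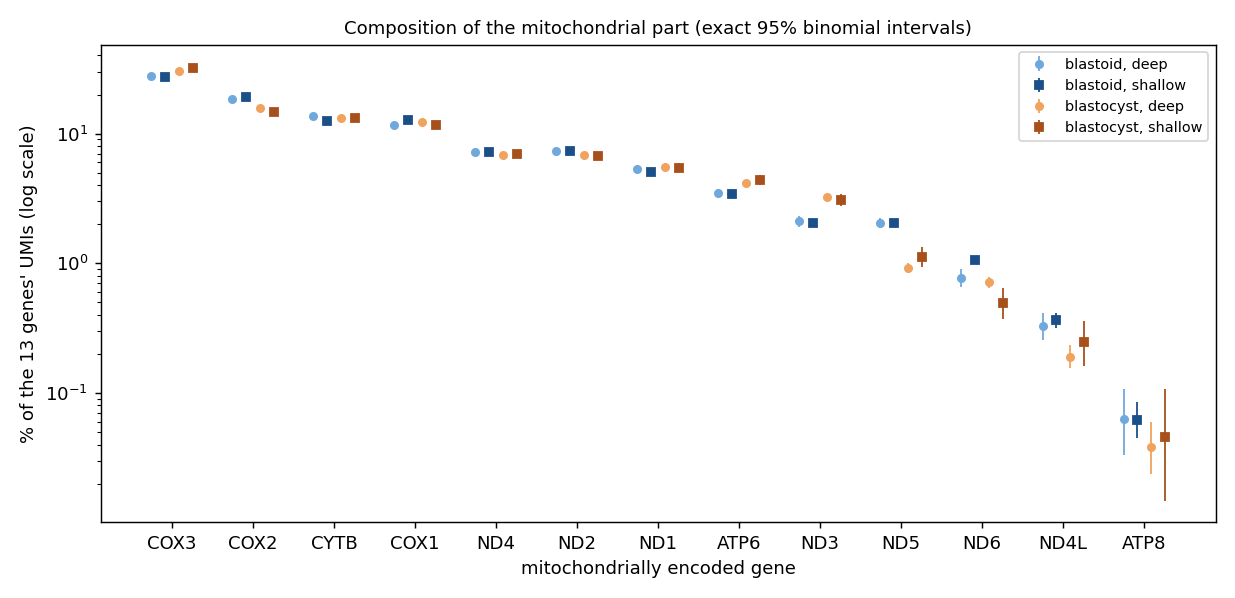
The y axis gives each mitochondrial gene's share of the UMIs of all 13, in percent on a log axis, for deep and shallow barcodes of the blastoid and blastocyst libraries, with exact 95% binomial intervals. For ND3 and ND5 the 2 blastoid points lie together and apart from the 2 blastocyst points, in opposite directions.

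Several complex IV subunits come as alternative genes. COX7B2, a paralog of COX7B known from testis, was the member furthest below in the blastoid: 43.4 CPM (38.5 to 48.8) in deep blastocyst and 6.28 CPM (4.14 to 9.13) in deep blastoid barcodes, 6.92-fold lower (4.65 to 10.7). It was 36.0 CPM in trophectoderm-like, 54.1 CPM in hypoblast-like and 50.5 CPM in epiblast-like blastocyst barcodes, against 9.95 CPM in trophectoderm-like and 1.59 CPM in unnamed blastoid barcodes. Every named blastocyst class was thus above both blastoid clusters, and within the trophectoderm-like classes COX7B2 was 3.62-fold lower in blastoid (2.27 to 5.96). COX7A1, the isoform known from heart and muscle, gave 22.2% of the UMIs of COX7A1 and COX7A2 in deep blastocyst barcodes (19.1% to 25.5%) and 8.33% in deep blastoid barcodes (6.07% to 11.1%). Within the trophectoderm-like classes the COX7A1 share was 25.9% and 9.89%, and in shallow barcodes 3.57% and 2.55%, blastocyst before blastoid. So the COX7A1 share was lower in shallow than in deep barcodes of each library, and the shallow blastocyst value rests on 4 of 112 UMIs.

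COX4I1, the common isoform of COX4, had 2372 blastoid and 775 blastocyst UMIs against none for COX4I2, the isoform known from lung and low oxygen, which allows COX4I2 a share of up to 0.155% and 0.475% of the pair (exact 95% bounds). COX6A1 had 1575 and 340 UMIs against none for COX6A2, the heart and muscle isoform, with bounds of 0.234% and 1.08%. COX6B2, known from testis, had 98 UMIs in blastoid and 9 in blastocyst, and 85 of the 98 were in shallow barcodes, at 26.6 CPM against 3.02 CPM in deep ones. NDUFA4L2, a paralog of NDUFA4 known as a hypoxia target, had 61 UMIs in blastoid and 4 in blastocyst, and made up 3.53% of the UMIs of the pair (2.71% to 4.51%) in blastoid and 0.924% (0.252% to 2.35%) in blastocyst. Of the 61 blastoid UMIs of NDUFA4L2, 48 were in shallow barcodes, at 15.0 CPM against 3.02 CPM in deep ones. Relative to its pair NDUFA4L2 was not higher there: it gave 3.33% of the pair's UMIs in shallow (2.47% to 4.39%) and 4.55% in deep blastoid barcodes (2.44% to 7.65%), with overlapping intervals. Both low genes thus had more UMIs in blastoid than in blastocyst.

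**Figure D5:**
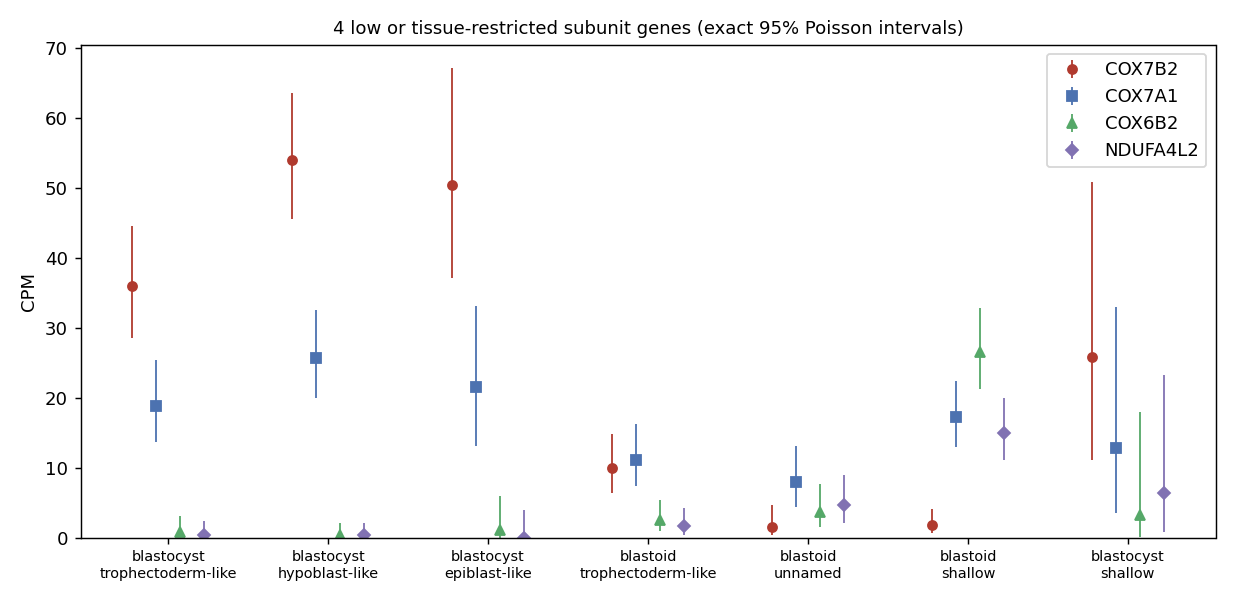
Points give the CPM of 4 low or tissue-restricted subunit genes (COX7B2, COX7A1, COX6B2 and NDUFA4L2) in classes and depth classes of the 2 libraries, with exact 95% Poisson intervals. COX7B2 is above 30 CPM in the 3 named blastocyst classes and at most 9.95 CPM in the blastoid groups, while COX6B2 is highest in shallow blastoid barcodes.

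The 3 genes for the c subunit of ATP synthase, which encode the same mature protein, were used in different proportions. ATP5MC1, ATP5MC2 and ATP5MC3 gave 17.2%, 35.1% and 47.7% of their joint UMIs in deep blastoid and 27.0%, 22.2% and 50.8% in deep blastocyst barcodes. In trophectoderm-like barcodes the ATP5MC2 share was 31.5% (27.8% to 35.3%) in blastoid and 24.4% (19.8% to 29.4%) in blastocyst, and the ATP5MC1 share 18.8% (15.7% to 22.1%) and 30.8% (25.8% to 36.1%). As shares of the 3 genes, ATP5MC2 was thus higher and ATP5MC1 lower in blastoid, while the level of ATP5MC1 was 46.3 CPM in deep blastoid and 46.0 CPM in deep blastocyst barcodes. The shares had intervals of ATP5MC1 that do not overlap and of ATP5MC2 that overlap in the trophectoderm-like class and not over deep barcodes. In shallow barcodes the ATP5MC2 shares were 36.0% and 16.8%.

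Other genes of the pathway were counted from lists, beside a deep background of 21.9% of all genes at least 2-fold higher and 15.2% lower. In deep barcodes, blastoid against blastocyst, 5 of 50 assembly factors were at least 2-fold higher and 1 lower, with a median of 0.00: PET100, SDHAF1, NDUFAF8, UQCC2 and UQCC3 were higher, by 1.32, 1.08, 2.24, 1.87 and 1.31 on the log2 scale, and ATPAF2 was lower at −1.31. Of 73 mitochondrial ribosome genes, 4 were at least 2-fold higher and 2 lower, with a median of 0.24. None of 22 genes for the copying and expression of mitochondrial DNA, RNA-binding proteins included, was at least 2-fold higher and 3 were lower (TBRG4 −1.19, POLRMT, the mitochondrial RNA polymerase, −1.16, and TWNK, the mitochondrial DNA helicase, −1.13), with a median of −0.31 (95% interval over members −0.54 to 0.12). Of 17 tricarboxylic acid cycle genes 5 were at least 2-fold lower and none higher, with a median of −0.63; they were PDHA1 (−1.34), CS (−1.41), DLD (−1.16), SUCLA2 (−1.03) and IDH3A (−1.58). The nuclear OXPHOS genes and those of the cycle that feeds them therefore had medians of opposite sign, 0.34 and −0.63. In trophectoderm-like barcodes the cycle's median was −0.23 (−0.95 to 0.14) with 4 of 17 at least 2-fold lower, beside 13.9% of all genes.

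Among 11 regulators, PPARGC1B, a coactivator of mitochondrial biogenesis, and ESRRB, a nuclear receptor also used as an epiblast marker, were at least 2-fold lower in deep blastoid barcodes at −2.06 and −2.11, and PPARGC1A was higher at 1.56. In trophectoderm-like barcodes ESRRB was at −1.67, PPARGC1B at −0.75 and PPARGC1A at 0.92, so only ESRRB of the 11 was past 2-fold there. In shallow barcodes PPARGC1A had 15 blastoid and 0 blastocyst UMIs, too few to compare. CYCS and CYC1, the cytochromes c and c1, had a median of −0.77 in deep, −0.15 in trophectoderm-like and 0.17 in shallow barcodes. Between shallow and deep barcodes CYCS had ratios of 2.62 in blastoid and 2.27 in blastocyst and CYC1 of 1.68 and 0.15, beside nuclear OXPHOS medians of 2.23 and 1.75. The longer lists had lower medians: −0.0056 in blastoid and 0.26 in blastocyst for the mitochondrial DNA genes, 0.18 and 0.37 for the cycle and 0.22 and 0.31 for the assembly factors. The mitochondrial ribosome lay between, at 1.53 and 0.88, and the regulators had medians of −1.52 and −0.17.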

How the data were processed

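UMI counts per gene and barcode were deposited by the authors as 1 matrix per library. Cell Ranger is given as version 7.2.0 per the file headers and 7.1.0 per the submitters' processing notes, which also name Seurat 4.3.0; genome build and annotation are not given in the sources used here. Barcodes with at least 500 genes were kept with no limit on mitochondrial UMIs, since that limit is set on 13 members; Scrublet doublets were removed at 0.8% per 1000 barcodes (30 blastoid, 6 blastocyst). Each library was clustered alone (scanpy 1.11.5, Leiden resolution 0.5, 2000 variable genes without markers or members, 30 components, 15 neighbours). A cluster was named when at least 4 markers of a class, each with at least 100 UMIs, were 1.5-fold above the other clusters. They also had to be 2 times as many as for any other class. Clusters with more than 5% of UMIs from ribosomal proteins were called ribosomal-rich whatever their markers. Other clusters under 50% of the library's median depth stayed unnamed. That naming rule was set after seeing the data: with 3 markers the unnamed deep blastoid cluster would be called hypoblast-like. Counts were summed per group, ratios of CPM taken with exact conditional 95% intervals (scipy 1.17.1), counts under 3 set to 3 (which raises unseen genes in the small shallow blastocyst sum), and medians taken over members with at least 10 UMIs. Named genes were the 13 mitochondrial genes, the 5 highest and 5 lowest nuclear members with at least 100 UMIs per comparison, isoform families, ATP5IF1 and listed pathway genes past 2-fold; the low-count members named beside these were chosen after their values were seen. The members and lists were chosen with earlier results of these data known. The scripts were tested on simulated data. Counting was not stated to use strand, and near-identical copies may share reads.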

Additional observations from a re-analysis of the deposited data

Results flagged for a closer look

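Barcodes with fewer than 500 genes entered no comparison. The 99 such blastocyst barcodes held 25.8% mitochondrial and 0.822% nuclear OXPHOS UMIs, or 31.4 mitochondrial UMIs per nuclear one (29.1 to 34.0), and were flagged as a signal in data left out. The 8 such blastoid barcodes held 1.08% mitochondrial and 1.04% nuclear OXPHOS UMIs. In the left-out blastocyst barcodes ND5 made up 1.38% and ND3 3.13% of the 13 genes' UMIs.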

How the results depend on the processing

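All values are medians of log2 ratios. No paired analysis was possible because each group had 1 library. Of the alternatives, 76 nuclear values moved by less than the interval of the median and 14 by more; for mitochondrial values 62 and 25, besides 3 in the deep or shallow library comparisons that changed sign. Among the moved values, a mitochondrial trophectoderm-like one and the nuclear epiblast-like ones marked below also changed sign; the cause was not tested. With a 10% mitochondrial limit the mitochondrial medians were −0.081 (blastoid against blastocyst, shallow), 1.48 (shallow against deep blastocyst) and 0.91 (epiblast-like against trophectoderm-like). With at least 200 genes the first 2 were −1.45 and 2.92, and the classes gave no value. With at least 1000 genes they were −0.012 and 1.44, the hypoblast-like mitochondrial median was 0.79, and the epiblast-like ones were 0.45 (nuclear) and 1.52 (mitochondrial). CPM without mitochondrial members and ribosomal proteins gave 2.46 and 2.32 for shallow against deep blastoid, nuclear and mitochondrial. Scaling by the median of all genes, which in comparisons with shallow blastocyst barcodes includes genes set to 3 counts, gave 1.32 and −0.22 for the shallow libraries, a mitochondrial 2.25 and 1.86 for shallow against deep (blastoid, blastocyst), 0.17 and 0.34 for hypoblast-like and −0.058 and 0.37 for epiblast-like (nuclear sign changed). With deep from 2000 UMIs, nuclear and mitochondrial medians were 1.30 and 0.19 (deep libraries; the mitochondrial sign changed), 0.50 and −1.30 (shallow libraries), 1.30 and 1.08 (shallow against deep blastoid) and 2.04 and 2.68 (blastocyst). From 6000 UMIs they were 1.77 and 0.27 (shallow libraries; the mitochondrial sign changed) and 0.91 and 1.22 (shallow against deep blastocyst). Resolution 1.0 gave −0.067 and 0.93 for epiblast-like (nuclear sign changed), and clustering with the members gave no epiblast-like value. Chosen after seeing the data, the ratio of median shares per barcode gave 2.20 and 1.54 (all kept), a mitochondrial 0.16 (deep, sign changed), 0.28 (trophectoderm-like, sign changed) and 0.31 (hypoblast-like), and 2.04 and 1.88 (shallow against deep blastoid). Also chosen then, leaving the unnamed cluster out of deep blastocyst barcodes gave a mitochondrial 2.44 for shallow against deep.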
